A study of Mus musculus with 12 samples.

Results

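The genes described here are 10 members of the NF-kB system of mouse neutrophils: the NF-kB subunits Nfkb1, Nfkb2, Rel and Relb, the IkB proteins Nfkbia, Nfkbie and Nfkbiz, and the feedback genes Tnfaip3, Tnip1 and Birc3. They were taken by symbol from the 28987 genes of the deposited expression table. Members were chosen with earlier results of these data known, and all 10 were among the 13456 genes with enough signal to be tested. RNA was measured in 12 libraries of neutrophils from FVB mice, 3 libraries in each of 4 groups. The groups were bone marrow (BM) and peritoneum (PT) of wild-type (WT) mice, and BM and PT of transgenic MRP8/BCL2+ mice, called Bcl2 here. In the transgenic mice the regulatory regions of human MRP8, a gene of the myeloid lineage, drive human Bcl-2, so that the neutrophils resist apoptosis. All mice of all 4 groups, the marrow groups included, received 2 mL thioglycollate into the peritoneum, which causes a sterile peritonitis, and cells were collected at 6 h by the labels, whereas the study's methods name other times. Neutrophils were sorted into Trizol, and the surface phenotype named for them is CD11b+ F4/80- GR1++. The labels call the source cells macrophages, whereas the series' design text and the study call them neutrophils. The age of the mice was not given in the sources used here.

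NF-kB transcription factors are dimers of Rel-family proteins that wait in the cytoplasm bound to IkB proteins. Signals from Toll-like, interleukin-1 and TNF receptors activate the IkB kinase (IKK), the IkB protein is degraded, and the freed dimer enters the nucleus and binds kappa-B sites. Many of the genes switched on in this way encode inhibitors of the same pathway, IkB-alpha and A20 foremost, so the pathway limits itself. In neutrophils NF-kB is known for its part in the production of cytokines and in survival at sites of inflammation.

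The libraries differed in ways that touch every value below. Levels are in TPM, a share of all transcripts of a library that is scaled by transcript length, so genes can be compared with each other. The value of 1 read on a transcript of 1 kb, judged from how low values are spaced, lay between 0.343 and 1.60 TPM, which put the least covered member, Relb, at about 1.0 to 81 reads a library and Rel at about 188 to 4556. The 108 genes whose transcripts hold a stretch of 31 or more A or T bases took between 8.93 and 24.1% of the TPM in the 6 BM libraries, 20.0% in library 12 of PT WT, 15.5% in library 7 of PT Bcl2 and 50.8 to 65.6% in the other 4 PT libraries. Bcl2 itself, the targeted gene, stood at 0.219 to 2.37 TPM in the WT libraries, 166 to 333 TPM in BM Bcl2 and 82.8 and 58.6 TPM in libraries 7 and 8 of PT Bcl2, but at 0.695 TPM in library 9, the library labelled PT Bcl2 whose level goes against its label. The transgene is human, so its reads show only where they were assigned to the mouse gene. Of 5 neutrophil markers, S100a8 and S100a9 were lower and Csf3r was higher in PT over both genotypes by the test described below. Cxcr2, with a log2 fold change of 1.39, did not pass it (limma adjusted p = 0.0944). Within WT, Csf3r did not pass it either (limma adjusted p = 0.189). Ly6g, an antigen that GR1 antibodies bind, was lower over both genotypes too. It had 588 to 1266 TPM in BM WT, 51.5 to 1225 TPM in BM Bcl2 and 58.9 to 126 TPM in PT Bcl2. In PT WT it was 13.1 and 14.9 TPM in libraries 10 and 11 and was listed at 0 in library 12. Within Bcl2 the log2 fold change of Ly6g, -1.605, did not pass the test (limma adjusted p = 0.293). By the study's methods, PT and BM cells were taken from each mouse, so a BM and a PT library of a genotype can share a mouse. Which ones do is not tied to the library columns, and the fit treated all 12 libraries as independent. In RNA from many cells, fewer cells of a type and less RNA per cell cannot be told apart.

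The promoters are shown first because they are where NF-kB would act on its own genes. RefSeq windows of GRCm38.p6, from 250 bases before to 50 bases after a transcription start, were at hand for 7 of the 10 members, Nfkb2, Rel, Nfkbia, Nfkbie, Tnfaip3, Tnip1 and Birc3, and not used here for Nfkb1, Relb and Nfkbiz. The 150 bases before the start are printed 5′ to 3′ along the gene, for Nfkb2 and Tnfaip3 at the most upstream of their starts, and capitals mark matches to the 10-base kappa-B consensus on either strand, joined where they overlap.
Tnfaip3 (chr10:19015411-19015560, minus strand): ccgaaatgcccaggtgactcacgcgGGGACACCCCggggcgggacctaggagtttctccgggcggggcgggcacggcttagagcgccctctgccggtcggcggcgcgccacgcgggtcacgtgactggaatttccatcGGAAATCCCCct
Nfkbia (chr12:55492648-55492797, minus strand): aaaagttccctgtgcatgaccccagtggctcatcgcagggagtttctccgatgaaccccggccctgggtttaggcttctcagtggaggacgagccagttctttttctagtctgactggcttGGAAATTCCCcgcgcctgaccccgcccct
Nfkb2 (chr19:46304587-46304736, plus strand): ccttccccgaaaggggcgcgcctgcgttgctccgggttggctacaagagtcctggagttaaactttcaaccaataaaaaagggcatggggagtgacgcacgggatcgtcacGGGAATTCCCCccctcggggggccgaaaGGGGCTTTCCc
Tnip1 (chr11:54962941-54963090, minus strand): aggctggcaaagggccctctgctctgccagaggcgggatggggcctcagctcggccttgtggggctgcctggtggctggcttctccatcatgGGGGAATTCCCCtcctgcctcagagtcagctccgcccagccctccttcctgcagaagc
Rel (chr11:23770970-23771119, minus strand): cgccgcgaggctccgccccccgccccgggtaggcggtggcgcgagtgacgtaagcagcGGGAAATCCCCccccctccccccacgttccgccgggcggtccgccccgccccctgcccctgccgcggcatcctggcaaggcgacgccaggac
Nfkbie (chr17:45555550-45555699, plus strand): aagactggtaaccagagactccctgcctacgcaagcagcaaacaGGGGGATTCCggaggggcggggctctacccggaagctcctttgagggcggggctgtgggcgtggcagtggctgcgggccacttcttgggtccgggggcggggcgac
Birc3 (chr9:7873171-7873320, minus strand): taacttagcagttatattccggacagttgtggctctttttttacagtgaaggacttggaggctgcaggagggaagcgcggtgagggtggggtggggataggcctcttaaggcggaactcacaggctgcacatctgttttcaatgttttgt
At least 1 match was present in 6 of the 7 members, in 8 of their 10 windows, whereas 4.51% of all 32851 windows and 5.14% of the 27025 genes in the table held a match. Tnfaip3 had matches that began 125 and 12 bases before the start, and none at its downstream start. The first Nfkb2 start had matches that began 39 and 11 bases before it, and the windows of its other 2 starts overlap and share a match. The single stretch in Nfkbia began 29 bases before the start, in Tnip1 58, in Rel 92 and in Nfkbie 106 bases before it. The Birc3 window held none, which says only that these letters are not in that window. Several of these genes are textbook NF-kB targets, so the list was not drawn without regard to such sites, and a match is a description of the sequence and not a bound site.

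**Figure D1:**
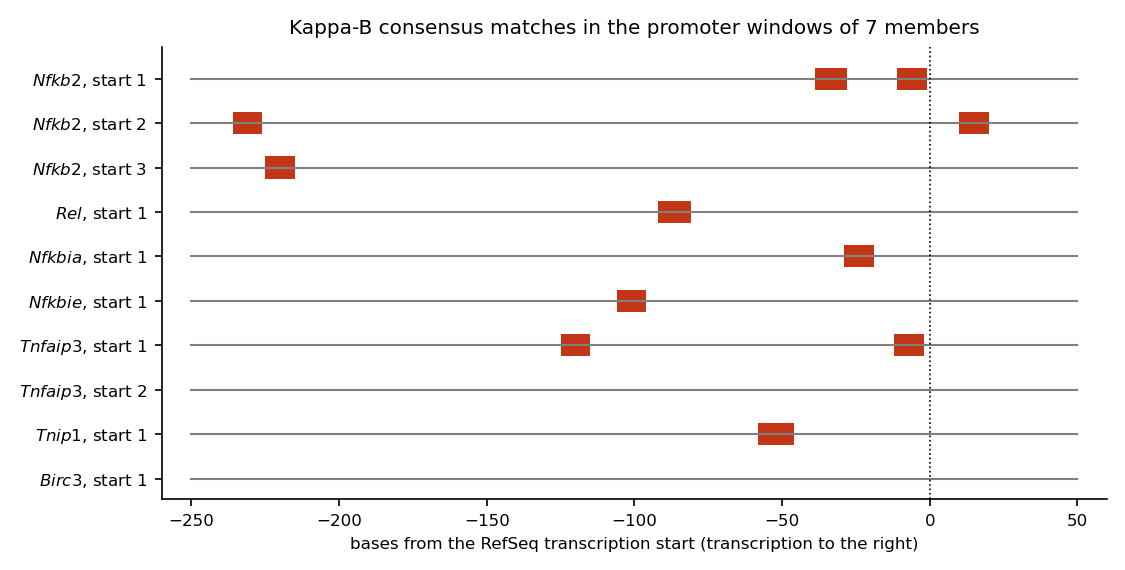
Positions of kappa-B consensus matches (red) in the 300-base RefSeq windows (grey lines) of 7 members, in bases from the transcription start (dotted line). Matches lie in 8 of 10 windows, and the second Tnfaip3 start and Birc3 have none.

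The first question was whether the RNA of these genes differed between neutrophils of the marrow and neutrophils recruited to the peritoneum. The feedback genes Tnfaip3 and Birc3 rose in PT in each genotype, and Nfkb2, Nfkbia, Relb and Tnip1 rose as well in the test over both genotypes. For Nfkb1, 5 of 6 PT libraries were below every BM library of their genotype, and it passed the test in neither direction. Groups were compared with limma on log2(TPM + 1) across all 13456 tested genes, and a call required a p, adjusted by Benjamini-Hochberg, below 0.05 together with a difference of 2-fold or more. Over both genotypes 6 of 10 members were called higher and 0 lower, against 5.13% of all tested genes called higher and 14.1% called lower. The members' median log2 fold change was 1.90, whereas that of all tested genes was -0.40.

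Within the genotypes the counts were smaller. In WT 2 of 10 members were called higher and 0 lower, where 1.59% of all tested genes were called higher and 1.22% lower. Without a threshold, all 3 PT WT libraries lay above all 3 BM WT libraries in 9 of 10 members, all but Nfkb1, and this held for 14.9% of all tested genes. In Bcl2 3 of 10 members were called higher and 0 lower, where 2.31% of all tested genes were called higher and 19.1% lower. There, all PT libraries lay above all BM libraries for Nfkb2, Nfkbia, Tnfaip3 and Birc3, and below them for Nfkb1, against 5.18 and 32.6% of all tested genes. These 4 higher members were also the ones whose 6 PT libraries all exceeded all 6 BM libraries, against 2.58% of all tested genes, and no member had all 6 below, against 4.46%. At an unadjusted p under 0.05 with at least 2-fold, 7 members were higher and 0 lower in WT (10.2 and 6.32% of all tested genes), 4 higher and 1 lower in Bcl2 (4.53 and 32.7%), and 7 higher and 0 lower over both genotypes (8.97 and 24.4%). Their median log2 fold change was 1.99 in WT, with 0.22 over all tested genes, and 1.66 in Bcl2, with -1.02 over all tested genes.

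**Figure D2:**
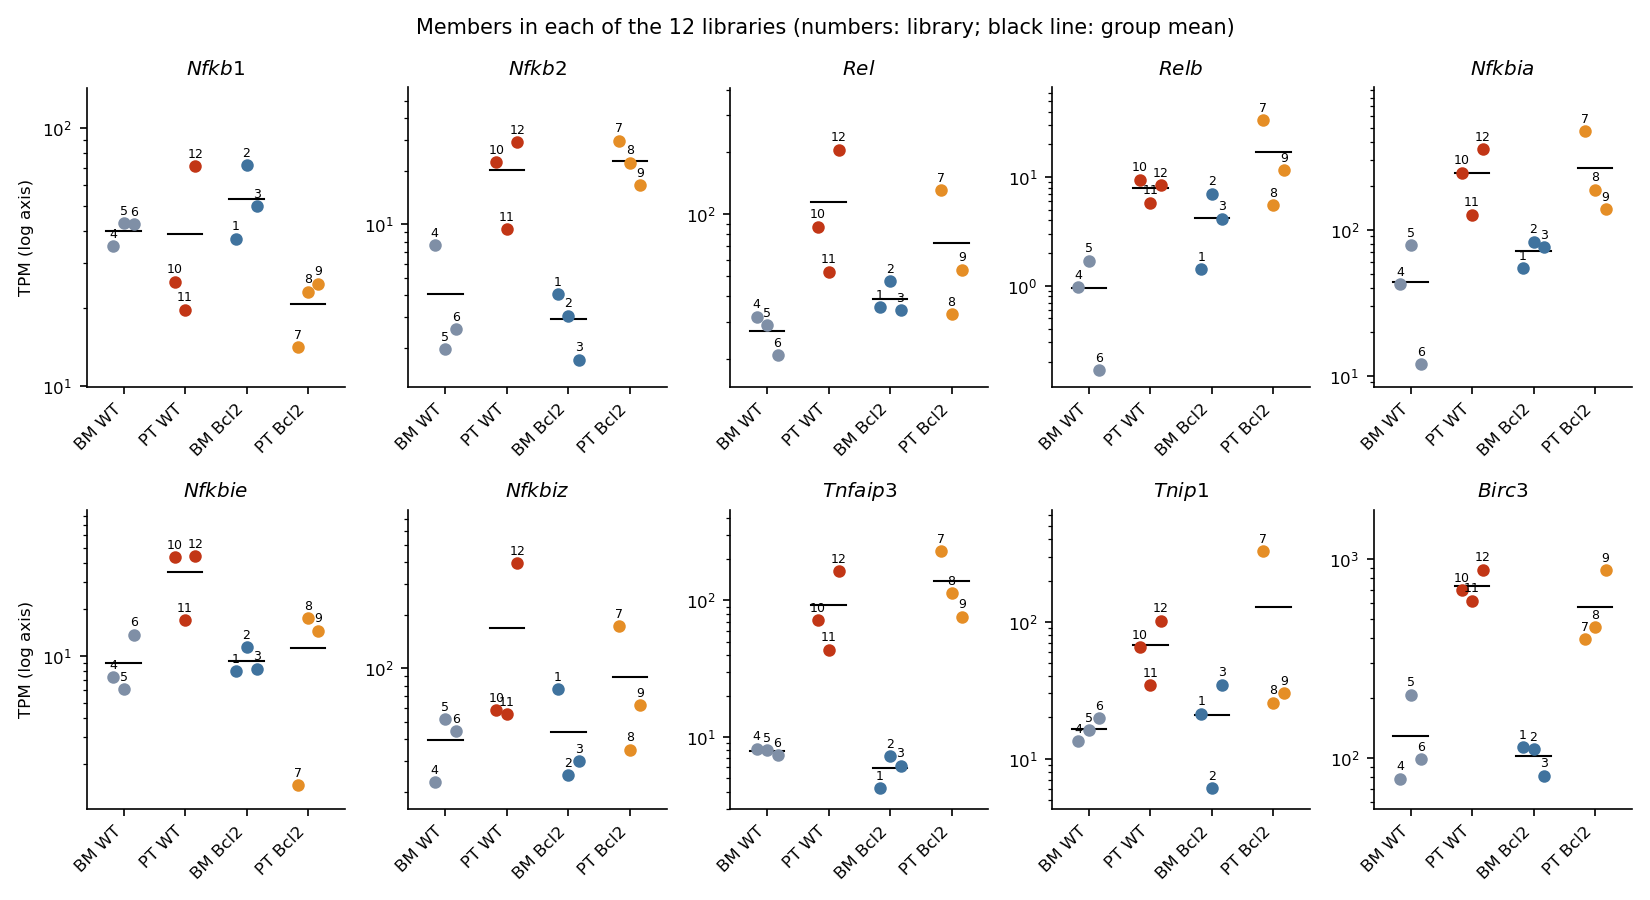
TPM on a log axis for each member in each of the 12 libraries, by group; numbers name the libraries and black lines are group means. Tnfaip3 lies between 4.24 and 8.25 in all 6 BM libraries and between 43.6 and 230 in all 6 PT libraries, whereas Nfkb1 overlaps between the tissues.

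Among the feedback genes, Tnfaip3 encodes A20, an enzyme that edits ubiquitin chains on signalling proteins upstream of IKK and so ends the signal (chr10:19000910-19015657, minus strand, GRCm38). Its level was 8.25, 8.06 and 7.35 TPM in BM WT and 71.8, 43.6 and 164 TPM in PT WT. In BM Bcl2 it was 4.24, 7.30 and 6.19 TPM, and in PT Bcl2 230, 113 and 75.8 TPM. The lowest PT library was thus more than 5 times the highest BM library, and the 3 BM WT libraries were nearly equal. On the log2 scale PT exceeded BM by 3.19 in WT (SE 0.63, limma adjusted p = 0.0139), 4.22 in Bcl2 (SE 0.63, adjusted p = 0.00118) and 3.71 over both genotypes (SE 0.44, adjusted p = 9.80e-05). The last value is about 13.1-fold on the scale of TPM + 1. The WT call was lost without library 4, 10 or 12, with an adjusted p of at most 0.0597, and the call over both genotypes was kept without any of the 12 libraries.

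Birc3 encodes cIAP2, a ubiquitin ligase that works with TRAF proteins at TNF-family receptors and restrains cell death (chr9:7848699-7873186, minus strand). It was the most abundant member in every group by mean TPM. Its level was 79.0, 208 and 99.0 TPM in BM WT and 697, 619 and 885 TPM in PT WT. In BM Bcl2 it was 114, 111 and 81.7 TPM, and in PT Bcl2 396, 453 and 878 TPM. The tissues did not overlap in either genotype. Its log2 fold change was 2.61 in WT (SE 0.50, limma adjusted p = 0.0119), 2.41 in Bcl2 (SE 0.50, adjusted p = 0.00543) and 2.51 over both genotypes (SE 0.35, adjusted p = 0.000301). Without library 4 or library 10 the WT call was lost, with an adjusted p of at most 0.0577.

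Tnip1 encodes ABIN-1, an adaptor that binds ubiquitin chains and A20 (chr11:54910785-54962917, minus strand). It stood at 13.4, 16.1 and 19.8 TPM in BM WT and at 65.5, 34.5 and 102 TPM in PT WT, without overlap. In Bcl2 the groups overlapped, with 21.3, 6.07 and 34.8 TPM in BM and 330, 25.6 and 30.1 TPM in PT, where library 7 was more than 10 times the other 2. Over both genotypes the log2 fold change was 1.86 (SE 0.63), with a limma adjusted p of 0.04999, just under the threshold. Of the 12 fits without 1 library, this call was kept only without library 3, 8 or 9. The value without library 7 was 1.28 (limma adjusted p = 0.0792).

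Of the IkB proteins, Nfkbia encodes IkB-alpha, the inhibitor that is degraded on stimulation and made again by NF-kB (chr12:55489410-55492647, minus strand). Its level was 42.2, 78.0 and 11.9 TPM in BM WT and 245, 127 and 358 TPM in PT WT. In BM Bcl2 it was 54.3, 82.6 and 75.7 TPM, and in PT Bcl2 471, 188 and 138 TPM. All PT libraries were above all BM libraries in both genotypes, a log2 fold change of 2.19 over both genotypes (SE 0.48, limma adjusted p = 0.00653). Within the genotypes it was 2.67 in WT (adjusted p = 0.0510) and 1.71 in Bcl2 (adjusted p = 0.0854) in the same fit, neither of them called. The WT value was called without library 5 or 7.

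Nfkbie encodes IkB-epsilon, a further cytoplasmic inhibitor (chr17:45555703-45563169, plus strand), and passed the test in neither genotype. In WT its level was 7.27, 6.10 and 13.8 TPM in BM and 43.4, 17.1 and 43.9 TPM in PT. In Bcl2 it was 7.97, 11.4 and 8.29 TPM in BM and 1.47, 17.6 and 14.6 TPM in PT, where library 7, the highest of its group for 7 members, was the lowest of all 12 libraries, on about 3.9 reads. Its log2 fold change was 1.79 in WT (SE 0.79, limma adjusted p = 0.269) and -0.18 in Bcl2 (SE 0.79, adjusted p = 0.890), and without library 7 the latter was 0.75. Nfkbiz encodes IkB-zeta, a nuclear IkB that helps NF-kB to switch on a second wave of genes (chr16:55811375-55838899, minus strand). It stood at 22.8, 51.5 and 44.1 TPM in BM WT and 58.3, 55.0 and 395 TPM in PT WT, where library 12 was far above the other 2. The Bcl2 groups overlapped, with 76.0, 25.0 and 29.8 TPM in BM and 173, 34.7 and 62.1 TPM in PT. Over both genotypes it had a log2 fold change of 1.20 (SE 0.57, limma adjusted p = 0.147).

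Among the subunits, Nfkb2 encodes p100, which is processed to p52 and serves the non-canonical arm of the pathway (chr19:46304320-46312385, plus strand). It was low in BM, with 7.64, 1.96 and 2.55 TPM in WT and 4.04, 3.04 and 1.71 TPM in Bcl2. In PT it was 22.4, 9.42 and 29.2 TPM in WT and 29.8, 22.4 and 16.6 TPM in Bcl2, above every BM library. Its log2 fold change was 2.61 in Bcl2 (SE 0.70, limma adjusted p = 0.0183) and 2.36 over both genotypes (SE 0.49, adjusted p = 0.00465). In WT it was 2.11 (adjusted p = 0.129 in the same fit), which was not called. Without library 2 or library 3 the Bcl2 call was lost, with an adjusted p of at most 0.0740.

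Relb encodes RelB, the usual partner of p52 (chr7:19606217-19629438, minus strand). It had the fewest reads of the members and stood at 0.973, 1.70 and 0.166 TPM in BM WT and 9.46, 5.83 and 8.44 TPM in PT WT. The Bcl2 groups overlapped, with 1.42, 7.03 and 4.15 TPM in BM and 33.5, 5.50 and 11.7 TPM in PT. Over both genotypes the value on the log2 scale was 1.93 (SE 0.56, limma adjusted p = 0.0259), and the call was lost without library 10, 1 or 7. Rel encodes c-Rel, a subunit with a strong activation domain that is abundant in blood cells (chr11:23736847-23770970, minus strand). Its level was 31.9, 29.0 and 20.8 TPM in BM WT and 86.8, 52.7 and 204.7 TPM in PT WT. It was 35.5, 47.2 and 34.4 TPM in BM Bcl2 and 130.4, 32.8 and 53.8 TPM in PT Bcl2, where 1 PT library was below all BM libraries. Its log2 fold change over both genotypes was 1.24 (SE 0.44), and its limma adjusted p of 0.0625 missed the threshold.

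Nfkb1 encodes p105, the precursor of p50 and at the same time an IkB-like inhibitor (chr3:135584655-135691547, minus strand). Its level was 34.8, 42.7 and 42.4 TPM in BM WT and 25.4, 19.8 and 70.9 TPM in PT WT, where library 12 was above and the other 2 below every BM library. In Bcl2 all PT libraries were below all BM libraries, with 37.3, 71.6 and 49.8 TPM in BM and 14.2, 23.2 and 24.9 TPM in PT. The log2 difference of PT from BM was -0.26 in WT (SE 0.59, limma adjusted p = 0.868), -1.30 in Bcl2 (SE 0.59, adjusted p = 0.122) and -0.78 over both genotypes (SE 0.42, adjusted p = 0.198). Its value in Bcl2 was close to the median of all tested genes, -1.02, and turned to 0.29 when each library was centred on its median.

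**Figure D3:**
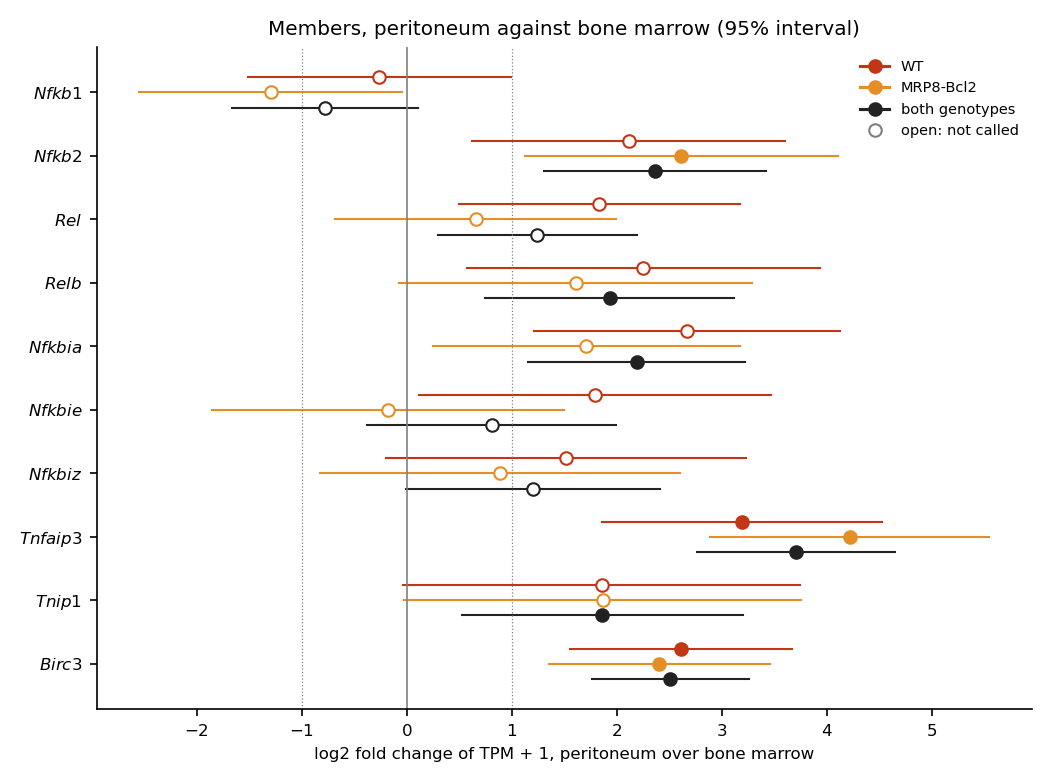
Log2 fold change of TPM + 1, PT over BM, for each member in WT, in Bcl2 and over both genotypes, with 95% intervals from limma; filled points were called and dotted lines mark 2-fold. Tnfaip3 and Birc3 are filled in all 3 comparisons, and the Nfkb1 points lie below 0.

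By mean TPM, Birc3 ranked 1 and Nfkbia ranked 2 in all 4 groups, and the ranks of the other members differed between groups. In BM WT Birc3 (129 ± 69.5 TPM, SD, n = 3) did not overlap with Nfkbia (44.0 ± 33.1 TPM), Rel (27.2 ± 5.76 TPM) lay above every value of Tnip1 (16.4 ± 3.26 TPM), and Relb (0.946 ± 0.767 TPM) was below every value of Nfkb2 (4.05 ± 3.12 TPM). In PT WT Birc3 (733 ± 137 TPM) again stood clear of Nfkbia (243 ± 116 TPM), and every other pair of neighbours in the order overlapped. In BM Bcl2 the gap was between Nfkbie (9.23 ± 1.90 TPM) and Tnfaip3 (5.91 ± 1.55 TPM), and in PT Bcl2 it was between Rel (72.3 ± 51.4 TPM) and Nfkb2 (22.9 ± 6.58 TPM). Tnfaip3 ranked 8 in each BM group, 5 in PT WT and 3 in PT Bcl2, where its neighbours overlapped with it.

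Levels within the PT groups were uneven, and they were uneven in the same libraries. Library 12 had the highest level of PT WT in 9 of 10 members and library 11 the lowest in all 10. Over all tested genes the median of log2(TPM + 1) was 2.59, 2.77 and 3.27 in libraries 10, 11 and 12. In libraries 7, 8 and 9 it was 1.64, 1.66 and 2.12. Library 7 had the highest level of PT Bcl2 in 7 of 10 members. Markers of B cells varied in a like order: summed over 4 markers, they came to 729, 619 and 1357 TPM in libraries 10, 11 and 12 and to 787, 219 and 595 TPM in libraries 7, 8 and 9, against 66.7 to 250 TPM in BM WT and 25.7 to 214 TPM in BM Bcl2. Of these markers Ms4a1 and Ighm, 2 of 4, were called higher in PT over both genotypes, and Cd79a and Cd79b were not. The 4 mast cell markers, 3 of them called higher, summed to 25.8 to 633 TPM in PT WT, with the highest value in library 12, to 1.43 to 37.0 TPM in PT Bcl2, and to 4.58 to 8.77 and 2.88 to 9.94 TPM in BM WT and BM Bcl2. Of 9 macrophage markers 7 were tested and 0 were called by limma at the adjusted threshold, and their sums were 71.9 to 79.6 TPM in PT WT, 14.7 to 107 TPM in BM WT and 17.9 to 116 TPM in BM Bcl2. In PT Bcl2 the macrophage sums were 141, 17.9 and 55.7 TPM in libraries 7, 8 and 9, so that library 7 had the highest of all 12 libraries. Gata6, which defines resident peritoneal macrophages, was listed at 0 in all libraries of BM WT, BM Bcl2 and PT Bcl2, and C1qa in all of PT Bcl2. In PT WT Gata6 was 0.603, 0.114 and 0 TPM in libraries 10, 11 and 12. Other markers of the list were present. Timd4 was 5.265, 0 and 0 TPM in BM WT and 7.40, 11.5 and 2.51 TPM in PT WT. It was 0.347, 1.78 and 0 TPM in BM Bcl2 and 0, 0 and 6.87 TPM in PT Bcl2. C1qb was 28.4, 0 and 0 TPM in BM WT and 1.22, 1.21 and 1.155 TPM in PT WT. It was 0, 17.7 and 0 TPM in BM Bcl2 and 32.7, 0 and 5.41 TPM in PT Bcl2. Adgre1 was 14.0, 11.7 and 14.7 TPM in PT WT, against 6.94, 4.78 and 0 TPM in BM WT. In Bcl2 it went the other way, with 5.57, 0.532 and 4.38 TPM in PT against 2.085, 18.5 and 3.61 TPM in BM. The median log2 fold change of the 7 tested macrophage markers, PT over BM, was 0.87 in WT and -0.275 in Bcl2. All 5 markers of immature neutrophils were called lower in PT. The part of B cells, mast cells, macrophages and maturation stage in the members' values was not tested.

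The second question was whether the transgene changed these genes or their difference between tissues. No member was called in any of the 3 comparisons, and Nfkbie in PT came nearest. For the difference of the PT effect between genotypes, 0 of 10 members passed limma's adjusted p under 0.05, where 0% of all tested genes did so upwards and 0.0149% downwards, and 0 had an unadjusted p under 0.05, against 0.364 and 16.6%. The estimates ran from -1.97 for Nfkbie (SE 1.11, limma adjusted p = 0.366) to 1.02 for Tnfaip3 (SE 0.88, adjusted p = 0.533). The 95% intervals were 2.98 to 5.35 log2 units wide, so differences of several-fold cannot be told from none. In BM, 0 of 10 members were called between Bcl2 and WT, against 0.0149% of all tested genes called higher and 0.00743% lower, and 0 were at an unadjusted p under 0.05 with 2-fold, against 6.61 and 0.751%. Rel was higher and Tnfaip3 lower in BM Bcl2 without overlap of the libraries, which held for 10 and 1.17% of all tested genes. The estimates lay between -0.39 for Tnfaip3 and 1.34 for Relb, with 0.49 as the median of all tested genes. In PT, 0 of 10 were called, against 0 and 0.0297% of all tested genes, and only Nfkbie was past an unadjusted p of 0.05 with 2-fold, against 0.446 and 12.2%. No member's PT groups were without overlap, where 0.587% of all tested genes were higher and 18.8% lower in that way. Its log2 fold change of Bcl2 over WT in PT was -1.89 (SE 0.79, limma adjusted p = 0.348, 95% interval -3.56 to -0.21), and its PT groups overlapped in 1 library each. Without library 7 it was -0.955 (limma adjusted p = 0.557), and without library 8 it was -2.41. The difference of the PT effect for Nfkbie was -1.04 without library 7, and -0.165 under median centring. The median of all tested genes was -1.18 for the difference of the PT effect and -0.67 for Bcl2 over WT in PT.

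The other genes of the pathway are given by their roles, from lists chosen with earlier results in view. Over both genotypes 5.13% of all tested genes were called higher and 14.1% lower, so counts of 1 or 2 in a list are a description. Of the other NF-kB and IkB proteins 2 of 4 were called higher over both genotypes. Nfkbid, a nuclear IkB, rose by 2.23 on the log2 scale (SE 0.59, limma adjusted p = 0.0178) and Bcl3, a nuclear IkB that binds p50 and p52, by 1.58 (SE 0.44, adjusted p = 0.0226), the latter lost without library 4 or 2. Rela, the main activating subunit p65, was 9.73 to 16.1 TPM in BM WT, 11.9 to 31.5 TPM in PT WT, 9.35 to 17.3 TPM in BM Bcl2 and 9.51 to 20.9 TPM in PT Bcl2, which overlapped in each genotype (log2 fold change 0.47, SE 0.44, limma adjusted p = 0.477). The 3 subunits of IKK showed no call: Chuk at -0.36 (SE 0.55), Ikbkb at -0.25 (SE 0.55) and Ikbkg at 0.29 (SE 0.47), and the signs of Chuk and Ikbkb turned under median centring. In the list of 11 IKK and upstream kinases 2 were called higher and 1 lower. Those higher were Map3k14 (NIK, the kinase of the non-canonical arm) at 1.83 (SE 0.59, limma adjusted p = 0.0413) and Map3k8 (Tpl2, which is held by p105) at 1.70 (SE 0.55, adjusted p = 0.0412). Of the 12 fits without 1 library, the Map3k14 call was kept only without library 1, 5 or 9 and the Map3k8 call only without library 2, 6 or 12. Tab1, a partner of the kinase TAK1, was called lower at -1.17 (SE 0.37, limma adjusted p = 0.0389), but was listed at 0 in all 3 PT Bcl2 libraries, never exceeded 4.03 TPM, and lost its call under every other scaling.

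Most calls outside the members were among target genes, in a comparison where 5.13% of all tested genes were called higher and 14.1% lower. Of 17 receptor adaptors and ubiquitin ligases 2 were called higher: Irak2, a kinase-like adaptor of interleukin-1 and Toll-like receptors, at 3.85 (SE 0.52, limma adjusted p = 0.000264) and Traf1 at 3.25 (SE 0.67, adjusted p = 0.00418). Of 9 other negative regulators only N4bp1 was called, at 1.15 (SE 0.38, limma adjusted p = 0.0450), a call kept only without library 8, 9 or 12. Of 8 receptors 3 were called higher: Il1rap, the shared chain of interleukin-1 family receptors, at 2.86 (SE 0.43, limma adjusted p = 0.000472), Tnfrsf1b, TNF receptor 2, at 2.08 (SE 0.41, adjusted p = 0.00343), and Tlr4, the receptor for lipopolysaccharide, at 1.84 (SE 0.32, adjusted p = 0.00140). Of the 17 tested among 19 listed target genes 13 were called higher and 0 lower, with a median log2 fold change of 3.38. The chemokine Ccl4 was listed at no more than 4.42 TPM in any BM library and stood at 74.9 to 207 TPM in PT WT and 139 to 320 TPM in PT Bcl2 (limma adjusted p = 1.08e-05). The other 4 with the smallest p were Ccl3 (log2 fold change 6.56), Cxcl2 (5.14), Il1b (4.39) and Icam1 (4.25), which encode chemokines, interleukin-1 beta and the adhesion receptor ICAM-1. Kappa-B consensus matches were present in 8 of the 17 target genes with a promoter window and in 2 of 4 other NF-kB and IkB proteins. They were present in 3 of 8 other negative regulators, 2 of 6 receptors, 1 of 15 adaptors and ligases, and 1 of 8 kinases. Over all 27025 genes with a window the share was 5.14%.

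**Figure D4:**
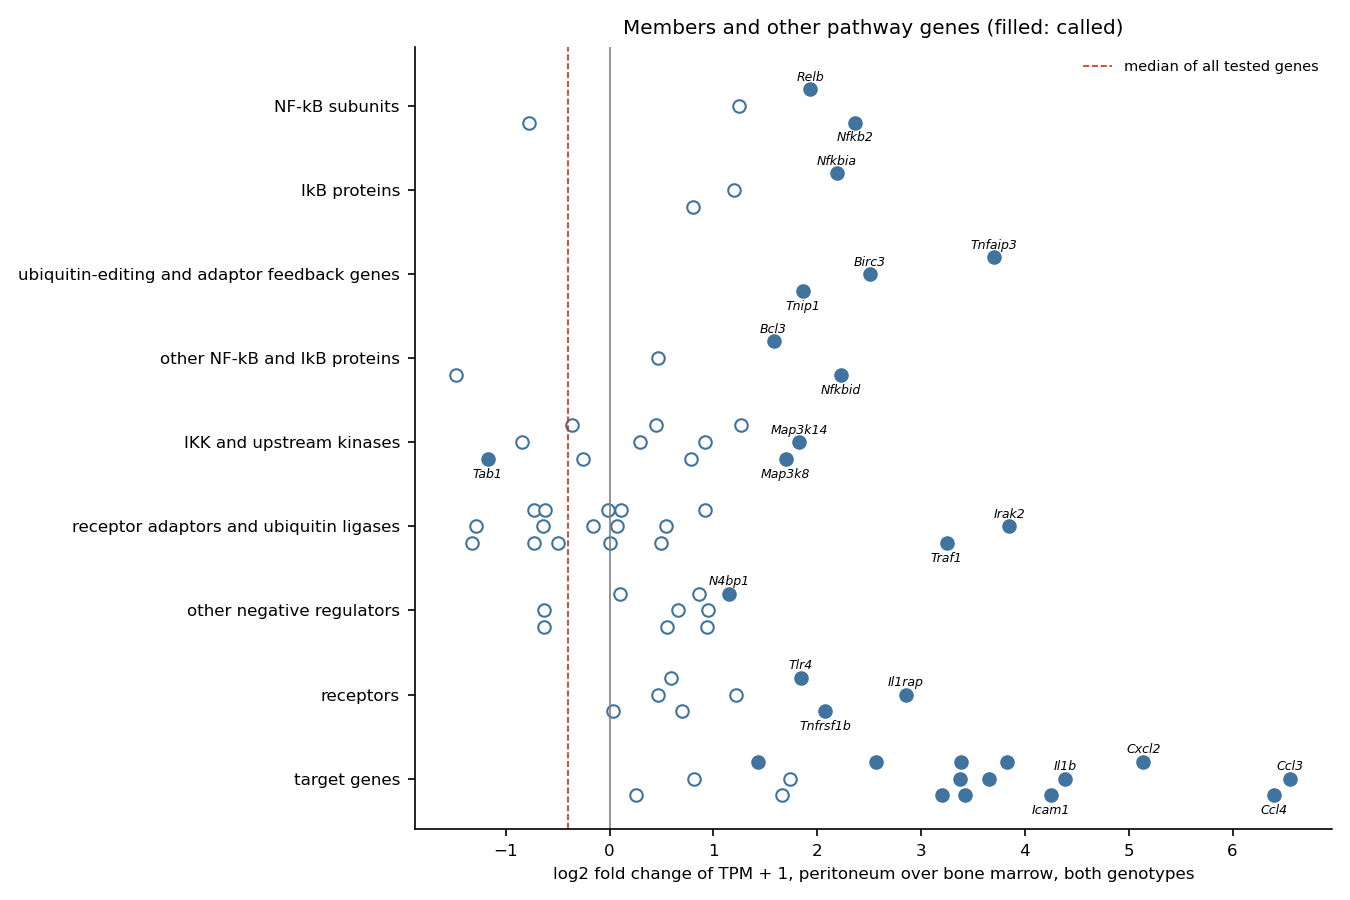
Log2 fold change of TPM + 1, PT over BM over both genotypes, for each tested gene by list; filled points were called, and names are given for at most 5 called genes a list. Target genes reach 6.56, most kinases and adaptors lie between -1.5 and 1.5, and the dashed line marks the median of all tested genes, -0.40.

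Across the 12 libraries the members were compared with each other as a description, since all points share depth, composition and tissue. Of the 45 pairs, Pearson's r of log2(TPM + 1) ran from -0.52 to 0.94 with a median of 0.63, and 27 pairs exceeded 0.5. Rel followed the mean of the other 9 most closely (r = 0.914), and Nfkb1 (r = -0.358) and Nfkbie (r = 0.252) followed it least. The mean profile, with each member scaled to mean 0 and SD 1, was below 0 in all 6 BM libraries and above 0 in all 6 PT libraries, with the highest values in library 12 (1.42) and library 7 (0.78). The 5 genes most like this profile were Cd80 (r = 0.993), Rasip1 (0.954), Trpm1 (0.953), Fem1c (0.952) and Cass4 (0.946), and 0.431% of tested genes exceeded 0.9. Trpm1 and Rasip1 were near the floor. Trpm1 was listed at 0 in all 6 BM libraries and at 0.359 to 5.45 TPM in PT. Rasip1 was at 0 to 0.2135 TPM in BM and at 2.63 to 18.55 TPM in PT. Cd80, which encodes the costimulatory ligand B7-1, stood at 5.69, 11.5 and 8.26 TPM in BM WT, 114, 45.6 and 339 TPM in PT WT, 12.9, 14.8 and 14.0 TPM in BM Bcl2 and 129, 37.8 and 68.6 TPM in PT Bcl2.

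The counts depended on how the libraries were scaled. Over both genotypes, 8 members in place of 6 were called higher when each library was centred on its median, when quantiles were equalised, and when the genes with A or T stretches were left out, a choice made after the data were seen. These scalings moved the median log2 fold change of all tested genes from -0.40 to 0.29, 0.03 and 0.05. Over all tested genes they moved the calls from 690 higher and 1891 lower to 1752 and 862, 1233 and 1249, and 1226 and 933. Tnfaip3, Birc3, Nfkb2, Nfkbia, Relb and Tnip1 were called under each of the 3, and Rel too, with log2 fold changes of 1.93, 1.45 and 1.89. Nfkb1 stayed below 0 over both genotypes under each, at -0.09, -0.45 and -0.15, but in WT it turned to 0.27 with those genes left out. Without library 9, which goes against its label, 6 members were called over both genotypes, and Tnfaip3 stood at 3.89 (limma adjusted p = 0.000218). Without library 7 there were 4, as Relb (1.61, limma adjusted p = 0.0512) and Tnip1 were lost, and without library 12 there were 5.

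**Figure D5:**
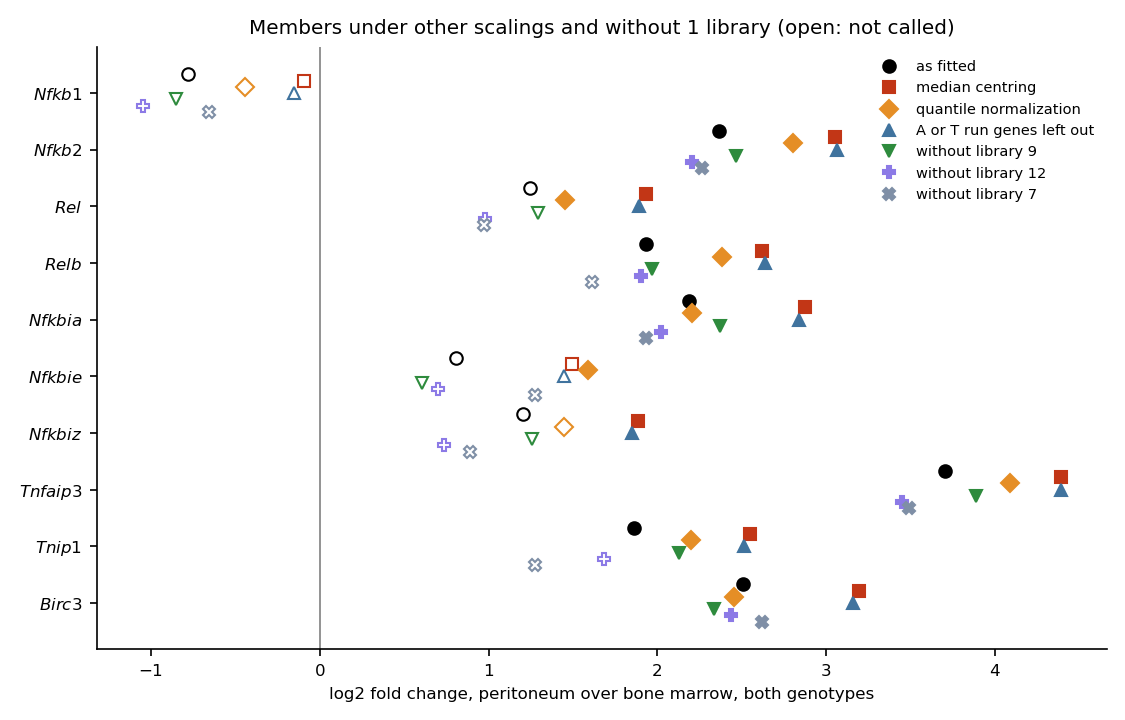
Log2 fold change of each member, PT over BM over both genotypes, as fitted, under 3 other scalings and without library 9, 12 or 7; filled symbols were called. Tnfaip3, Birc3, Nfkb2 and Nfkbia are filled throughout, and Nfkb1 is open and below 0 throughout.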

How the data were processed

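The authors analysed paired-end reads of total RNA with AltAnalyze at default values; its version, the annotation and the genome build are not given in the sources used here. The deposited table holds log2(TPM + 1) per gene and library, with no scaling between libraries beyond TPM, and the means of the library columns gave the deposited TPM averages of each group. Columns of the authors' own comparisons (fold changes, p-values, marker and lineage scores) and 2 columns of per-sample values that no label ties to a sample were not used. Library columns were put into groups by the header of the deposited marker table. They carry no replicate number, so BM and PT libraries of the same mouse could not be paired.

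Of 28987 genes, the 13456 that reached 1 TPM in 3 or more libraries entered a single two-sided limma fit (version 3.58.1, R 4.3.3, moderated with a mean trend) of log2(TPM + 1) on the 4 groups, which left 8 degrees of freedom. A call needed an adjusted p under 0.05 over all tested genes and at least 2-fold, for the difference between genotypes the adjusted p alone. The fold change understates the change of low genes. The steps were tested on simulated data in which only planted genes, 77, 65 and 58 of 13456, differed between the tissues. There a planted log2 change of 1 was called in 0 of 77 genes in each tissue comparison. A change of 2 was called in 2 of 65 genes within either genotype and in 21 of 65 over both. A change of 4 was called in 32 of 58 genes in WT, 31 of 58 in Bcl2 and 48 of 58 over both. In the data more genes were called over both genotypes, 690 higher and 1891 lower, so these shares need not hold there. Members without a call can thus still differ. Members and lists were chosen with earlier results of these data known. One marker gene of a list of other cell types is not reported here and was left out of that list. Named genes were all members, up to 5 called genes of each pathway list by smallest p, Rela, the IKK subunits and the 5 genes most like the members. Coordinates are those of GENCODE M21 (GRCm38), promoters those of RefSeq (GRCm38.p6). Their direction was checked against GENCODE transcripts. The bases after the start were found in a transcript of the gene for 7 of the 10 member windows. They were not found for Nfkbie, Tnip1 and the second Nfkb2 start. Depth was read from the spacing of low values of 5021 genes with 1 transcript and is an estimate. No interval is given for single values because TPM holds no counts. Alternatives were a pseudocount of 0.1, no filter, a filter of 5 TPM, median centring, quantile normalization, eBayes without a trend, only the groups compared, thresholds of 0.01 and of the unadjusted p, and fits without each library.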

Additional observations from a re-analysis of the deposited data

How the results depend on the processing

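No paired analysis was possible because the library columns carry no replicate number, although PT and BM cells were taken from each mouse. Members called higher in PT numbered 2 in WT and 3 in Bcl2. With each library centred on its median the Bcl2 count was 7, beside 1636 of 13456 tested genes in place of 311. With quantile normalization it was 6, beside 678 genes. With A or T stretch genes left out, chosen after seeing the data, it was 5 in each genotype, beside 485 genes in WT, in place of 214, and 543 in Bcl2. At an unadjusted p the WT count was 7, and Nfkb1 in Bcl2 and Nfkbie between genotypes in PT made 1 lower call each. At an adjusted p under 0.01 the WT count by limma was 0, with 7 higher at the unadjusted p. Without 1 library the WT count ran from 0 (without library 4 or 10) to 3, the Bcl2 count from 2 to 4 and the count over both genotypes from 4 to 7. Signs turned only for values that were not called as fitted. Under centring Nfkb1 in Bcl2 was 0.293, Nfkbie in Bcl2 1.41, Chuk 0.326 and Ikbkb 0.435. Under quantile normalization Nfkbie in Bcl2 was 1.37. With A or T stretch genes left out, Nfkb1 in WT was 0.269, Nfkbie in Bcl2 0.529, Chuk 0.26 and Ikbkb 0.373. Without 1 library Nfkb1 in WT ran from -0.80 to 0.094, Nfkbie in Bcl2 from -0.71 to 0.753, Chuk from -0.82 to 0.004 and Ikbkb from -0.67 to 0.199. The cause was not tested. Over the members in the 3 tissue comparisons, 583 alternative values kept direction and call, 33 gained and 27 lost a call, and 7 turned sign. Few reads limit Relb, Nfkbie and Nfkb2 in BM.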

Other observations

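The levels of the 2 precursor subunits lay closer together in PT. Nfkb1, the precursor of p50, exceeded Nfkb2, the precursor of p52, at least 4.55 times in every BM library. In PT the ratio was at most 2.43, and in library 7 Nfkb2 was the higher of the pair. The BM ratios rest on Nfkb2 at 1.71 to 7.64 TPM, with as few as about 4.1 reads. Within each library, the ratio of Nfkb1 to Nfkb2 TPM was 4.55, 21.8 and 16.6 in BM WT and 1.13, 2.10 and 2.43 in PT WT. It was 9.23, 23.5 and 29.0 in BM Bcl2 and 0.476, 1.04 and 1.50 in PT Bcl2. All 6 PT ratios were below all 6 BM ratios. A ratio within a library does not move when all its TPM values are multiplied by a common factor, though quantile normalization can change it. The log2 ratio of PT minus BM, averaged over the genotypes, was -3.54. The pair was chosen after its values were seen, so the ratio is given as a description, with no test.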
